A study of Mus musculus with 28 samples.

Results

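The regions described here are those where unmodified mouse fibroblasts had a deposited ChIP-seq peak of the histone deacetylases HDAC1 or HDAC2. Of the 82893 regions of the authors' coverage table, 13119 (15.8%) qualified. A peak of HDAC1 alone lay in 2024 of them, a peak of HDAC2 alone in 7881, and peaks of both in 3214, while 69774 regions had neither. A region counted as having a peak when the deposited covered fraction was above 0. All 82893 regions carry a peak of at least 1 of 8 libraries, so regions with neither HDAC are regions with a peak of another NuRD subunit or of tagged histone H3.3 and not a sample of the genome.

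The cells were NIH/3T3 Tet-On 3G cells, a fibroblast line from mouse embryos with a doxycycline-inducible transactivator, labelled wild type and not transduced for the subunit and histone mark libraries. HDAC1, HDAC2, CHD4, MBD2/3, MTA1, RBBP4, H3K27ac, H3K9ac and H3K4me3 had 1 library each. HA-H3.3 had 2 libraries from cells transduced with an HA/FLAG-H3.3 construct and cultured with doxycycline and aphidicolin. RNA came from 2 LUC/LUC control clones transduced with GFP-Luciferase and OFP-Luciferase, for which the labels give a protocol of FLAG/HA-H3.3 cells with doxycycline. RNA and ChIP therefore come from different derivatives of the line, and each control clone is 1 clone. MTA1 and RBBP4 peak lists from GFP-Luciferase/OFP-Luciferase control cells and from H3.3 knockdown cells (OFP-H3.3A/GFP-H3.3B), and a sequential FLAG then RBBP4 precipitation from HA/FLAG-H3.3 cells, were used for overlap only. With 1 library per antibody no difference between HDAC1 and HDAC2 could be tested. The intervals given are exact 95% binomial intervals that cover counting error only, and regions are not replicates.

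HDAC1 and HDAC2 are closely related class I deacetylases that remove acetyl groups from histone tails and from other proteins. Neither binds a DNA sequence by itself, and they act as the catalytic pair of large corepressor complexes: NuRD, with the remodelling ATPases CHD3 and CHD4, the MTA scaffolds, the methyl-CpG-binding proteins MBD2 and MBD3 and the histone chaperones RBBP4 and RBBP7; Sin3; and CoREST, which also holds the demethylase KDM1A. Although known as corepressors, they are found by ChIP-seq mainly at active, acetylated promoters and enhancers in many cell types. Acetylated lysines 9 and 27 of histone H3 mark active promoters and enhancers, and H3K4me3 marks the starts of genes.

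Promoter sequence is printed for 5 genes, to show the kind of DNA that lies under the peak groups. BC055324 and Bysl have promoter regions with an HDAC1 peak only and are among the 5 regions with the largest excess of HDAC1 where the pair of libraries held at least 50 reads. Hdac2 is shown because the gene of the enzyme itself has a promoter region with an HDAC2 peak only. Jun and Rps6 have both peaks and, of the listed genes named below with both, the largest sums of HDAC1 and HDAC2 level. Each sequence runs 5′ to 3′ along the gene from 250 bases before to 50 bases after the RefSeq start. Capitals mark matches on either strand to 8 motifs: the GC box GGGCGG, the CCAAT box, the E-box CACGTG, the NRF1 motif GCGCATGC, the ETS motif CCGGAAG, the AP-1 motif TGANTCA, the cyclic AMP response element TGACGTCA and the YY1 motif AAGATGGC.
BC055324 (GRCm38.p6, chr1:163994747-163995046, minus strand): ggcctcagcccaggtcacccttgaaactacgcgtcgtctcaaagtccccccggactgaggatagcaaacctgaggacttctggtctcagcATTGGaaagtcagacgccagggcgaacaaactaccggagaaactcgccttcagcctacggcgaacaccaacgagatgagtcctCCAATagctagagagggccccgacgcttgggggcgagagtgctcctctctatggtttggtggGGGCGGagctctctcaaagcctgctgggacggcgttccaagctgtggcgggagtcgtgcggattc
Bysl (GRCm38.p6, chr17:47611443-47611742, minus strand): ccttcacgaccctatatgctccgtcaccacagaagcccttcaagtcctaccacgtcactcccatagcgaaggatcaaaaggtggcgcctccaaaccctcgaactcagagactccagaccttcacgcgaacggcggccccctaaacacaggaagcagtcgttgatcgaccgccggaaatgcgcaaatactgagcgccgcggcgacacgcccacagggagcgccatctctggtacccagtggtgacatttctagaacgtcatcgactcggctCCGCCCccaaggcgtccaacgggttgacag
Hdac2 (GRCm38.p6, chr10:36974294-36974593, plus strand): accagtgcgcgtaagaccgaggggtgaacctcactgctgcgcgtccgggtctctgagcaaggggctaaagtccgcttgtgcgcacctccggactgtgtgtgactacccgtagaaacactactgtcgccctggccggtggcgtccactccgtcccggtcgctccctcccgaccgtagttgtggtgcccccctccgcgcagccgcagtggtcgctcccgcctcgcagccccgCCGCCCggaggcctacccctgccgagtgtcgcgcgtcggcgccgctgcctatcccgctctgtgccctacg
Jun (GRCm38.p6, chr4:95052173-95052472, minus strand): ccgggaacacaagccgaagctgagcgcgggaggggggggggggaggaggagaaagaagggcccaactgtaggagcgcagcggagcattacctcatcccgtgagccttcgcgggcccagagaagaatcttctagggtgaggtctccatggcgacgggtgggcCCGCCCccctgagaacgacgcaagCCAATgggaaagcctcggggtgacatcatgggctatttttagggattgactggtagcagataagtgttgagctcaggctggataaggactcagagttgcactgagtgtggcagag
Rps6 (GRCm38.p6, chr4:86857318-86857617, minus strand): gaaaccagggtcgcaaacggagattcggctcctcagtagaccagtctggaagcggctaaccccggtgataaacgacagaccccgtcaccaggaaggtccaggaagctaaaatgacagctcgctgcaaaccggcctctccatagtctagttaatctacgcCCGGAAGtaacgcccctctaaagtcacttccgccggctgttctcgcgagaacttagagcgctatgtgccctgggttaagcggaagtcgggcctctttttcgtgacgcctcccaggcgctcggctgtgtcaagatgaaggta
BC055324, Bysl, Hdac2 and Jun hold 1 GC box each and Rps6 holds 1 ETS motif and no GC box. CCAAT occurs 2 times in BC055324 and 1 time in Jun. The 5 promoters hold 20, 27, 36, 15 and 23 CpG dinucleotides in the order printed. Over the 17788 promoters matched to a gene of the expression tables, most of whose genes have no HDAC peak, GGGCGG occurred in 47.0%, CCAAT in 39.1%, CACGTG in 8.19%, GCGCATGC in 3.67%, CCGGAAG in 11.9%, TGANTCA in 7.40%, TGACGTCA in 2.42% and AAGATGGC in 3.28%. A comparison of motif shares between the peak groups is void, because only 77.9% of the genes with an HDAC1 peak alone and 79.1% of those with an HDAC2 peak alone matched a promoter sequence. The promoter table and the deposited regions use different builds, so no position within a region is given for these sequences. A match is a run of letters and not a bound site.

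Most HDAC1 regions also had an HDAC2 peak, while most HDAC2 regions had no HDAC1 peak. An HDAC2 peak was present in 61.4% of the 5238 HDAC1 regions (interval 60.0 to 62.7%), and an HDAC1 peak in 29.0% of the 11095 HDAC2 regions (28.1 to 29.8%). The HDAC2 peaks were also wider. In regions with both peaks HDAC2 peaks covered a median of 447 bp and HDAC1 peaks a median of 212 bp. Peaks found alone covered 167 bp in HDAC1 regions and 267 bp in HDAC2 regions. The HDAC1 library held 8.68 M reads (M, mega), of which 12.4% lay in the 82893 regions, and the HDAC2 library held 6.62 M reads, of which 15.4% did. The library with more peaks was thus the shallower and the more concentrated. With 1 antibody and 1 library each, the enzyme cannot be told apart from its antibody.

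At annotated promoters (the authors' class of 3 kb upstream or 5′ UTR) the overlap was higher in both directions. Of the HDAC1 promoter regions 69.2% had an HDAC2 peak, and of the HDAC2 promoter regions 38.3% had an HDAC1 peak. Outside promoters the shares were 55.5% and 23.6%. The overlap depended strongly on what counts as a peak. When a peak had to cover at least 50% of a region, 568 regions had HDAC1 alone, 2022 had HDAC2 alone and 90 had both.

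Regions with both peaks were the longest, with a median of 1909.5 bp, against 965 bp for HDAC1 alone, 1393 bp for HDAC2 alone and 784 bp for neither. Regions under 500 bp made up 31.1% of HDAC1 alone, 17.3% of HDAC2 alone, 3.24% of both and 20.8% of neither. Shares that follow are therefore also given within length classes where they bear on a comparison. The covered fractions also show that most peaks fill a small part of their region. The median fraction was 0.204 for HDAC1 alone and 0.237 for HDAC2 alone.

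Levels are given as log2(RPKM + 1), as deposited, where RPKM is reads per kilobase of region, scaled to library depth. They come from the same libraries as the peaks and so describe the groups without testing them. The median HDAC1 level was 1.91 in regions with HDAC1 alone, 1.47 with HDAC2 alone, 1.84 with both and 0.98 with neither. The median HDAC2 level was 1.64 with HDAC1 alone, 2.00 with HDAC2 alone, 2.12 with both and 1.06 with neither. A group without a peak of an enzyme thus still had more of that enzyme's reads than regions with neither peak. The median difference of HDAC1 minus HDAC2 was 0.20 with HDAC1 alone, −0.50 with HDAC2 alone and −0.28 with both, against −0.14 over all 82893 regions. The HDAC1 level was the higher of the pair in 68.2% of regions with HDAC1 alone, in 3.29% with HDAC2 alone and in 13.6% with both, and in 37.4% of all regions.

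A 2-fold difference in level here means a difference of at least 1 on the log2(RPKM + 1) scale, and a minority of regions reached it even in the groups named for 1 enzyme. Over all regions 1.60% had HDAC1 at least 2-fold above HDAC2 and 3.29% had it at least 2-fold below. Of the regions with HDAC1 alone 323 (16.0%) were past 2-fold higher and 0 of 2024 past 2-fold lower. Of the regions with HDAC2 alone 0 of 7881 were past 2-fold higher and 1026 (13.0%) past 2-fold lower. With both peaks the counts were 0 of 3214 and 13 (0.404%). Since the peak calls used these reads, the excess over the background is not a separate result. The added 1 shrinks differences at low levels, so that a read ratio beyond 2-fold can fall short of this limit. The region of 2310045N01Rik, for example, had a depth-scaled read ratio of 2.51 and a level difference of 0.88. The median region with HDAC1 alone held 20 HDAC1 and 14 HDAC2 reads, and the median region with HDAC2 alone held 21 HDAC1 and 25 HDAC2 reads. At 20 reads counting error is 22.4% of the value.

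**Figure D1:**
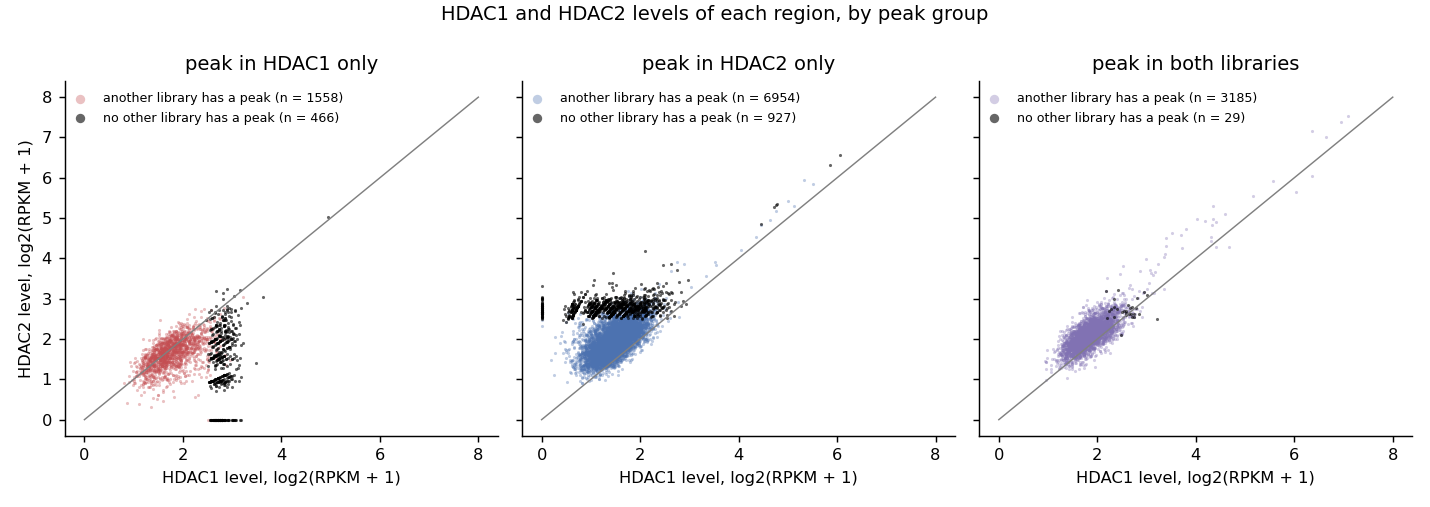
Each point is 1 region, with its HDAC1 level on the horizontal axis and its HDAC2 level on the vertical axis, both log2(RPKM + 1), in 3 panels for HDAC1 peak alone, HDAC2 peak alone and both. Black points are the 466, 927 and 29 regions with no CHD4, MBD2/3, MTA1, RBBP4 or HA-H3.3 peak, whether or not they have a mark peak. In the first and second panels the black points form bands at the side of the enzyme with the peak, while most coloured points lie near the grey line of equal levels.

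Some regions are in the table through an HDAC peak alone. No peak of CHD4, MBD2/3, MTA1, RBBP4 or either HA-H3.3 library lay in 466 regions with HDAC1 alone (23.0%), 927 with HDAC2 alone (11.8%) and 29 with both (0.902%). These unaccompanied regions were short, with medians of 160, 216 and 249 bp. They held few reads, with a median of 8 HDAC1 and 2 HDAC2 reads for HDAC1 alone, and of 3 HDAC1 and 8 HDAC2 reads for HDAC2 alone. The enzyme without a peak had 0 reads in 76 of the 466 and in 52 of the 927. Since such a region is little more than the peak through which it entered the table, a level difference in favour of that enzyme follows from the way it was chosen. The median level difference was 1.21 for HDAC1 alone, −1.31 for HDAC2 alone and −0.11 for both. In regions accompanied by another peak the difference was 0.08 for HDAC1 alone and −0.46 for HDAC2 alone, and −0.28 for both. Of the 323 regions with HDAC1 alone past 2-fold higher, 289 were unaccompanied and 34 had another peak. These 34 were 2.18% of the 1558 accompanied regions with HDAC1 alone. Of the 1026 with HDAC2 alone past 2-fold lower, 645 were unaccompanied and 381 had another peak, out of 6954 accompanied regions. The 69774 regions with neither HDAC peak, all of them accompanied, held 1004 (1.44%) past 2-fold higher and 1688 (2.42%) past 2-fold lower. At 8 reads counting error is 35.4%.

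Across regions HDAC1 and HDAC2 levels followed each other, as a description over regions that share 2 libraries and their depth. The Spearman correlation was 0.59 over all 82893 regions, 0.25 with HDAC1 alone, 0.47 with HDAC2 alone and 0.72 with both. Over all regions HDAC1 correlated with RBBP4 at 0.64 and HDAC2 with RBBP4 at 0.69. In regions with both peaks these values were 0.59 and 0.67, below that of HDAC1 with HDAC2.

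Among regions with at least 50 reads in the pair of libraries, those with the largest excess of HDAC1 all had an HDAC1 peak alone. The largest difference was in a region 108060 bp from Nfib, a nuclear factor I gene (mm9, chr4:82259744-82260695), with 39 HDAC1 and 11 HDAC2 reads, a depth-scaled ratio of 2.70 (interval 1.36 to 5.85). The promoter region of 2310045N01Rik held 56 HDAC1 and 17 HDAC2 reads (ratio 2.51, 1.44 to 4.61). That of Bysl, which encodes the ribosome biogenesis factor bystin (mm9, chr17:47747326-47748473), held 45 and 18 (1.91, 1.08 to 3.50), and that of BC055324 held 41 and 17 (1.84, 1.02 to 3.45). An exonic or 3′ end region of Gm20759 held 41 and 16 (1.95, 1.07 to 3.73). All 5 also had an RBBP4 peak, and 2310045N01Rik and Bysl an MTA1 peak.

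Those with the largest excess of HDAC2 all had an HDAC2 peak alone. The promoter region of Fgfr1, a fibroblast growth factor receptor (mm9, chr8:26628899-26629884), held 14 HDAC1 and 37 HDAC2 reads, a ratio of 0.29 (0.14 to 0.55). A region 76541 bp from Gas7 held the same 14 and 37. The promoter region of Tcte2 held 15 and 37 (0.31, 0.16 to 0.58), a region of Ndufa9, a complex I gene, 17 and 36 (0.36, 0.19 to 0.66), and a region 13435 bp from Mid1 held 25 and 47 (0.41, 0.24 to 0.67). All 5 had an RBBP4 peak, and the region near Mid1 was in the top 1% of every subunit library. These 10 regions were picked for their differences, so the intervals describe the precision of each ratio and support nothing.

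The highest levels named a different class of region. The top 5 regions with both peaks were 2 on chromosome 2 whose nearest gene, Lrrc4c, lies 1030511 and 1034518 bp away, 1 on chromosome 9 at 19675 bp from 4933422A05Rik, the ribosomal RNA locus Rn45s and 1 stretch of the mitochondrial genome. All 5 had levels in the top 1% in every subunit library, and the first (mm9, chr2:98506340-98507546) held 1432 HDAC1 and 1467 HDAC2 reads. No mark peak was called in this first region, although its mark levels were high too. They were 5.52 for H3K27ac, 5.82 for H3K9ac and 5.70 for H3K4me3, against medians of 1.04, 0.85 and 0.60 over all regions. The top 5 with HDAC2 alone were 4 regions at 11395 to 16393 bp from Mir101c on chromosome 9 and 1 at 125633 bp from Rab10os, again high in every subunit library. Regions of this kind numbered 2 with HDAC1 alone (0.0988%), 21 with HDAC2 alone (0.266%), 35 with both (1.09%) and 13 with neither (0.0186%). Over all regions the share was 0.0857%. The remaining top regions with HDAC1 alone were 91 to 293 bp long, 2 of them within Gm15319 and Zfp345, 1 at 203024 bp from Gata6 and 1 at 21815 bp from Rab4a. They held 8 to 29 HDAC1 reads, against 1 to 14 HDAC2 reads.

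By promoter share the groups named for 1 enzyme were closer to each other than to regions with both peaks, but not under a stricter peak rule. Annotated promoters made up 34.1% of regions with HDAC1 alone (32.1 to 36.3%), 31.7% with HDAC2 alone (30.6 to 32.7%), 48.3% with both (46.5 to 50.0%) and 10.2% with neither. Regions that touched introns only made up 30.6%, 31.3%, 23.5% and 44.6% in the same order. With a covered fraction of at least 0.5 the promoter share of HDAC1 alone minus that of HDAC2 alone was −15.9 percentage points (−19.8 to −11.7), against 2.47 with any peak, and HDAC2 alone minus both was −5.38 (−16.5 to 5.19). Regions without an annotated feature made up 23.1%, 26.8%, 17.4% and 31.5%. Exons or 3′ ends without a promoter class made up 12.1%, 10.2%, 10.8% and 13.7%. Among regions of 500 to 1000 bp, promoters were 45.1% of HDAC1 alone, 39.7% of HDAC2 alone and 56.4% of both. Chromosome X held 11 regions with HDAC1 alone (0.543%), 43 with HDAC2 alone (0.546%), 4 with both (0.124%) and 1135 with neither (1.63%). Unaccompanied regions were less often promoters, 16.1% for HDAC1 alone and 20.6% for HDAC2 alone.

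Histone acetylation was most frequent where both enzymes had a peak. H3K27ac peaks lay in 36.6% of regions with HDAC1 alone (34.5 to 38.7%), 44.7% with HDAC2 alone (43.6 to 45.8%), 70.8% with both (69.1 to 72.3%) and 9.74% with neither. H3K9ac peaks lay in 52.7% with HDAC1 alone, 55.4% with HDAC2 alone, 82.5% with both and 11.1% with neither. H3K4me3 peaks lay in 66.3%, 70.9%, 91.6% and 20.9% in the same order. Both acetylation marks together lay in 32.7% of HDAC1 alone, 37.0% of HDAC2 alone, 66.4% of both and 4.89% of neither. None of the 3 marks was called in 30.8% of HDAC1 alone, 23.6% of HDAC2 alone, 5.63% of both and 74.4% of neither.

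The levels of the marks, which do not depend on mark peak calls, were again highest with both HDAC peaks and lowest with neither. The median H3K9ac level was 1.39 with HDAC1 alone, 1.35 with HDAC2 alone, 1.99 with both and 0.80 with neither. For H3K27ac it was 1.29, 1.34, 1.54 and 0.99, and for H3K4me3 2.66, 2.42, 3.88 and 0.51. The medians of HDAC1 alone and HDAC2 alone differed by less than those of either from both.

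The gap between both peaks and a single peak was present within promoters, outside promoters and in each length class, while the order of HDAC1 alone and HDAC2 alone changed. It depended on the peak rule. With a covered fraction of at least 0.5, HDAC2 alone minus both was −2.32 percentage points for H3K27ac (−13.3 to 7.71), −4.41 for H3K9ac (−15.0 to 6.68) and −0.719 for H3K4me3 (−10.7 to 10.2), all with intervals that include 0. HDAC1 alone minus both was then −23.1, −28.7 and −26.3. At promoters H3K9ac peaks lay in 88.6% with HDAC1 alone, 87.9% with HDAC2 alone and 97.0% with both, and H3K27ac peaks in 57.0%, 60.9% and 77.3%. Outside promoters H3K27ac peaks lay in 26.0%, 37.3% and 64.6%, and H3K9ac peaks in 34.1%, 40.3% and 68.9%. In regions of 500 to 1000 bp H3K9ac peaks lay in 65.9% with HDAC1 alone, 59.7% with HDAC2 alone and 84.4% with both, H3K27ac peaks in 43.6%, 39.8% and 57.2%, and H3K4me3 peaks in 80.1%, 74.3% and 92.7%. All 3 marks were then more frequent with HDAC1 alone than with HDAC2 alone, the reverse of all lengths together, although for H3K27ac the interval of the difference (−1.65 to 9.37 percentage points) includes 0. This order of all 3 marks was found in that length class alone. Under 500 bp HDAC1 alone was below HDAC2 alone for H3K27ac (11.6% and 16.1%), H3K9ac (29.2% and 36.7%) and H3K4me3 (41.4% and 51.1%). At 1000 to 2000 bp the shares were 48.5% and 48.9% for H3K27ac, 62.9% and 58.9% for H3K9ac and 77.3% and 74.8% for H3K4me3. Over 2000 bp they were 51.7% and 59.6%, 60.8% and 59.4%, and 75.0% and 75.8%. In unaccompanied regions H3K27ac peaks lay in 7.51% with HDAC1 alone and 12.6% with HDAC2 alone, against 16.1% of all 82893 regions. H3K9ac peaks lay in 23.0% and 30.9% of these, against 19.1% of all regions, and H3K4me3 peaks in 32.2% and 42.7%, against 29.5%. None of the 3 marks was called in 67.4% and 56.5%. All regions under 500 bp, nearer in length to the unaccompanied ones, had shares of 6.46% for H3K27ac, 14.6% for H3K9ac and 25.3% for H3K4me3. The unaccompanied regions lay above these shares. For H3K27ac with HDAC1 alone, however, the interval (5.29 to 10.3%) includes 6.46%.

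**Figure D2:**
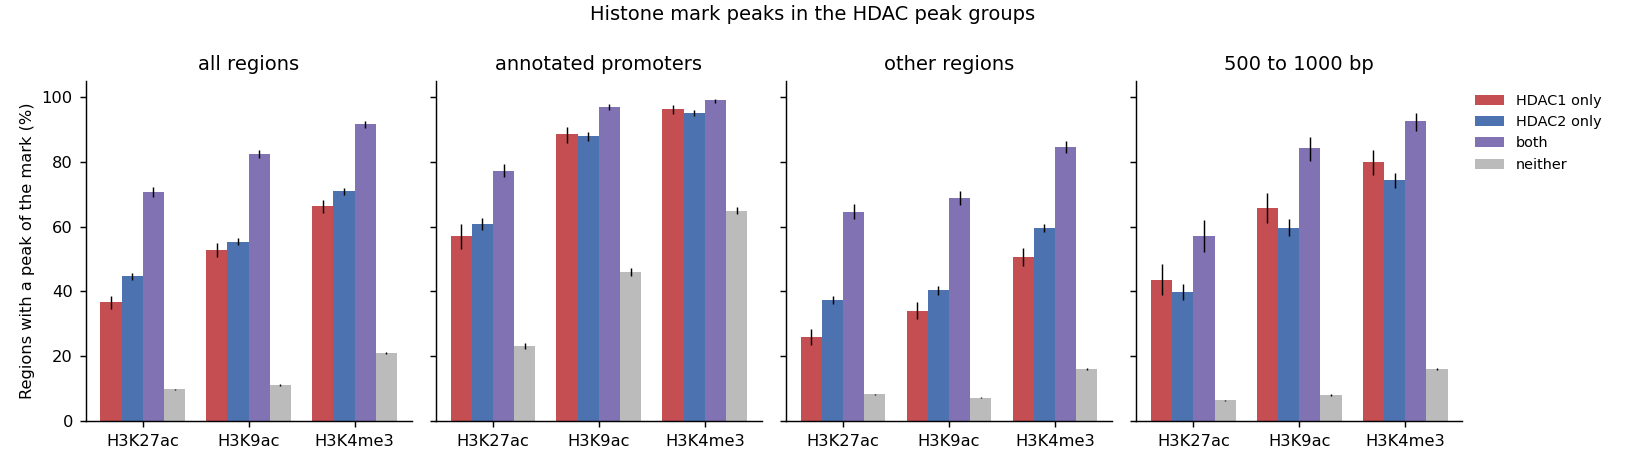
Bars give the percent of regions with a peak of H3K27ac, H3K9ac or H3K4me3, in 4 panels for all regions, annotated promoters, other regions and regions of 500 to 1000 bp, with exact 95% binomial intervals. The bar for both HDAC peaks is the highest of the 4 groups in every panel and mark, and HDAC1 alone stands below HDAC2 alone over all regions and above it at 500 to 1000 bp.

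The partner subunits were also found most often with both HDAC peaks. RBBP4, the histone-binding chaperone shared by NuRD and Sin3, had the most frequent partner peak. It lay in 63.6% of regions with HDAC1 alone (61.4 to 65.7%), 78.4% with HDAC2 alone (77.5 to 79.3%), 97.3% with both (96.6 to 97.8%) and 21.7% with neither. The order of HDAC1 alone and HDAC2 alone stayed in regions of 500 to 1000 bp, at 75.1% and 80.6%, and in accompanied regions, at 82.6% and 88.9%. Of the 25717 regions with an RBBP4 peak, 17.2% had an HDAC1 peak and 36.2% an HDAC2 peak.

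The subunits that define NuRD were far less frequent. CHD4, the remodelling ATPase, had a peak in 6.92% of regions with HDAC1 alone, 6.17% with HDAC2 alone, 18.0% with both and 1.16% with neither. MBD2/3, detected with 1 antibody to both methyl-CpG-binding proteins, had a peak in 7.02%, 7.38%, 19.7% and 1.82%. MTA1, the scaffold that holds the deacetylases in NuRD, had a peak in 7.76%, 9.47%, 24.8% and 1.89%. At least 1 of these 3 lay in 18.2% with HDAC1 alone (16.6 to 20.0%), 19.3% with HDAC2 alone (18.5 to 20.2%) and 44.3% with both (42.5 to 46.0%). Over all regions the groups named for 1 enzyme therefore overlapped in their intervals, but not within promoters or outside them. At annotated promoters the share was 28.9% with HDAC1 alone (25.6 to 32.5%) and 23.2% with HDAC2 alone (21.6 to 24.9%). In other regions the order was the opposite, 12.7% (10.9 to 14.6%) and 17.5% (16.5 to 18.6%). Under 500 bp the share was 6.83% with HDAC1 alone, 6.81% with HDAC2 alone, 24.0% with both and 12.2% with neither. The groups named for 1 enzyme were then below neither. At 500 to 1000 bp the shares were 18.5%, 16.5%, 35.3% and 1.53% in the same order. All 4 partners together lay in 7 regions with HDAC1 alone (0.346%), 33 with HDAC2 alone (0.419%), 108 with both (3.36%) and 3 with neither (0.00430%). Over all regions the share was 0.182%. Seen from the partners, 35.7% of the 2017 CHD4 regions had an HDAC1 peak and 52.9% an HDAC2 peak. For MTA1 it was 31.7% and 51.2% of 3017 regions, and for MBD2/3 29.5% and 46.2% of 2629. The CHD4, MBD2/3 and MTA1 libraries held 10.5 to 10.6% of their reads in the regions, against 12.4% for HDAC1, 15.4% for HDAC2 and 19.6% for RBBP4. The part of this lower enrichment in their low shares of peaks was not tested.

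HA-tagged H3.3, the histone variant deposited outside of DNA replication, had a peak in both replicates in 54.7% of regions with HDAC1 alone, 69.3% with HDAC2 alone, 84.3% with both and 46.3% with neither. A peak in at least 1 replicate lay in 63.7%, 76.6%, 90.2% and 91.2% in the same order, so that regions with neither were then the highest. At 1000 to 2000 bp these shares were 99.1%, 97.7%, 96.4% and 99.8%. They were 72.7%, 67.8%, 56.7% and 97.7% at 500 to 1000 bp, and 2.38%, 3.07%, 8.65% and 63.0% under 500 bp. Among the groups with an HDAC peak the H3.3 shares differed more between these length classes than between the groups within a class. The regions were assembled from the peaks of these libraries, HA-H3.3 included, so region length is not independent of the H3.3 peaks. A region with neither HDAC peak is listed only through an H3.3 or partner peak. Both patterns thus follow at least in part from how the regions were made.

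**Figure D3:**
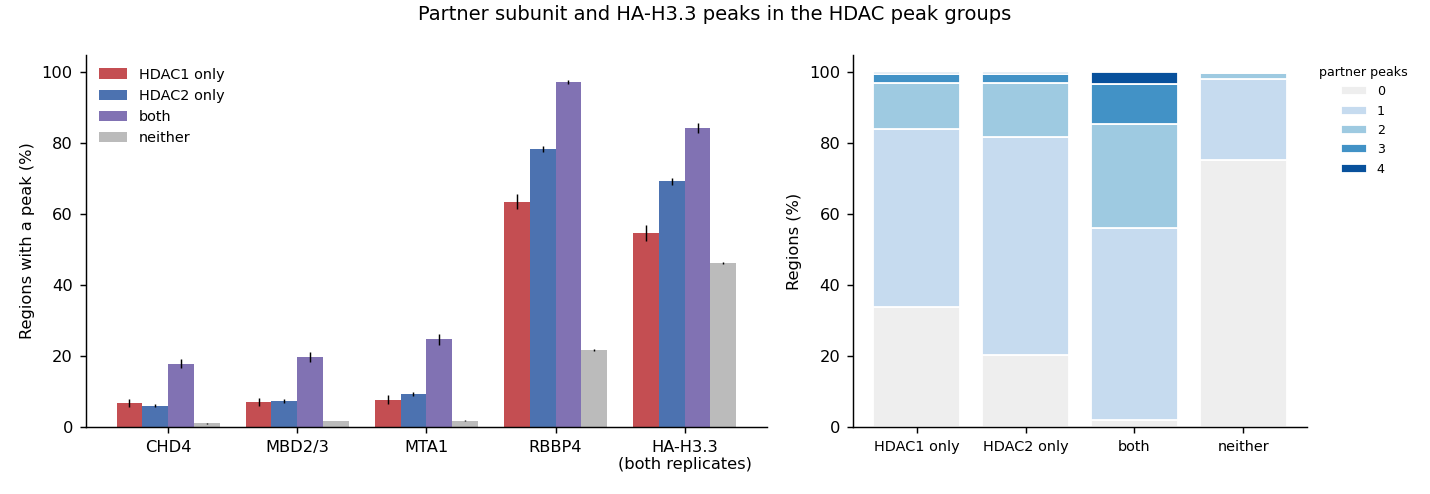
The left panel gives the percent of regions with a peak of each partner subunit or of HA-H3.3 in both replicates, with exact 95% binomial intervals, and the right panel the percent of regions with 0 to 4 partner peaks. In the left panel the bars for both HDAC peaks are the highest, and in the right panel 33.8% of regions with HDAC1 alone, 20.4% with HDAC2 alone and 2.15% with both had no partner peak.

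The separate MTA1 and RBBP4 lists from transduced cells showed the same concentration. MTA1 peaks of H3.3 knockdown cells overlapped 1.93% of regions with HDAC1 alone, 3.07% with HDAC2 alone, 7.78% with both and 0.335% with neither, and those of luciferase control cells 1.63%, 2.63%, 5.94% and 0.284%. RBBP4 peaks of knockdown cells overlapped 5.29%, 9.16%, 20.9% and 0.735%, and those of control cells 4.74%, 9.34%, 18.3% and 0.933%. Each is 1 library. Of the 6 deposited peaks of the sequential FLAG-H3.3 and RBBP4 precipitation, 4 fell in regions with both HDAC peaks (near Aurkb, Fam64a, Kif2c and H2afx), 1 in a region with HDAC1 alone (near Cdc25c) and 1 in a region with HDAC2 alone (near Mcph1). Of all 82893 regions 3214 had both HDAC peaks and 15.8% had either. With 6 peaks of 1 library these counts are a description. Regions with both peaks were also the longest (median 1909.5 bp), and the part of length in these overlaps was not tested.

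Genes nearest to the regions were mostly expressed in all groups. In LUC/LUC clone 1 the median FPKM (fragments per kilobase of transcript, scaled to depth) of the nearest gene was 11.1 with HDAC1 alone, 10.1 with HDAC2 alone, 15.5 with both and 8.77 with neither, and in clone 2 it was 11.0, 10.3, 15.1 and 9.22. An FPKM of at least 1, on the mean of both clones, was reached for 79.0%, 78.0%, 87.0% and 74.4% of the regions. The clones are cells of a different derivative than those used for ChIP. They expressed fibroblast genes: all 10 fibroblast markers exceeded 1 FPKM in both clones, with a summed FPKM of 5742 and 5656. The summed FPKM of 6 epithelial markers was 2.39 and 2.67, of 6 haematopoietic markers 10.4 and 15.9, of 5 endothelial markers 9.79 and 14.7 and of 6 neural markers 0.688 and 1.02. An FPKM of 1 was reached in clones 1 and 2 by 1 and 2 of the epithelial, 2 and 3 of the haematopoietic, 2 and 3 of the endothelial and 0 of the neural markers. The highest of these was Cd14, at 5.95 and 7.52.

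A closer link between region and gene was made for annotated promoter regions within 3 kb of an end of a gene, either end, since the tables give no strand. On this basis 730 genes had an HDAC1 peak alone, 2612 an HDAC2 peak alone, 1971 both and 4852 a promoter region with neither, out of 23951 genes. In clone 1 their median FPKM was 13.9 with HDAC1 alone, 13.0 with HDAC2 alone, 16.7 with both and 6.63 with neither, and in clone 2 it was 13.7, 13.0, 16.0 and 7.21. The clones gave the same order. An FPKM of at least 1 was reached by 90.3% of genes with HDAC1 alone (87.9 to 92.3%), 89.4% with HDAC2 alone (88.2 to 90.6%), 93.5% with both (92.3 to 94.5%) and 73.3% with neither. Among the 11555 genes at FPKM 1 or more, the share with both peaks was 20.7% in the 2889 most highly expressed and 9.80% in the 2889 least expressed. The share with HDAC1 alone was 6.51% and 3.95% in these sets, and that with HDAC2 alone 21.5% and 15.7%. Genes without an assigned promoter region count in these shares and made up 23.3% and 38.7% of the 2 sets. Their part in the differences was not tested. Of all 23951 genes, 13786 had no such promoter region, which can also follow from the rule of assignment.

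**Figure D4:**
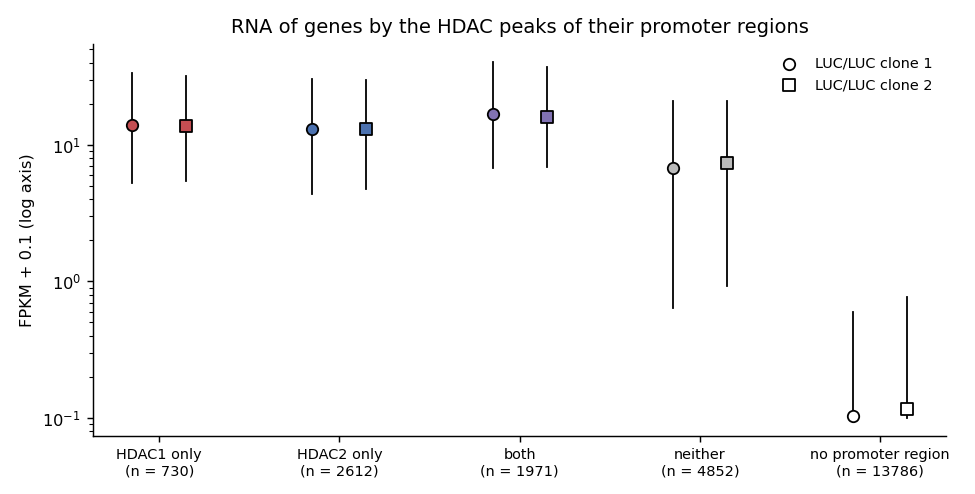
Points give the median FPKM + 0.1, on a log axis, of genes grouped by the HDAC peaks of their promoter regions, with lines from the 25th to the 75th percentile of genes, for LUC/LUC clone 1 (circles) and clone 2 (squares). Both clones place genes with both peaks highest, at 16.7 and 16.0 FPKM, and the other HDAC groups close to each other.

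The genes of the NuRD subunits themselves mostly carried HDAC peaks, none of them HDAC1 alone. Of 15 genes 4 had HDAC2 alone, 5 both, 3 neither and 3 no assigned promoter region. An HDAC peak was thus found at 60.0% of them. Over all 11555 genes at FPKM 1 or more it was found at 41.9%, made up of 5.70% HDAC1 alone, 20.2% HDAC2 alone and 15.9% both. This list and those that follow are to be read against these shares. In the 2889 most highly expressed genes, from FPKM 31.7, the 3 shares were higher, at 6.51%, 21.5% and 20.7%. The NuRD list had a median FPKM of 64.3 and 58.3 in the 2 clones. At 5.70% a list of 15 would hold few genes with HDAC1 alone. The promoter region of Hdac1 (mm9, chr4:129218992-129220812) held 49 HDAC1 and 55 HDAC2 reads, at levels of 2.04 and 2.48, and has both peaks. The promoter region of Hdac2 (mm9, chr10:36693636-36695060), whose sequence is printed above, held 37 HDAC1 and 41 HDAC2 reads, at levels of 2.00 and 2.42, and has an HDAC2 peak alone. The ratio of HDAC1 to HDAC2, scaled to depth, was 0.68 at Hdac1 (0.45 to 1.02) and 0.69 at Hdac2 (0.43 to 1.10). The same ratio thus falls in both peak groups. The FPKM in the 2 clones was 111 and 77.7 for Hdac1, and 89.7 and 70.4 for Hdac2.

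Rbbp4 had the highest levels of the NuRD genes, 2.25 for HDAC1 and 2.66 for HDAC2, with 70 and 76 reads and peaks of CHD4, MTA1 and RBBP4 itself. Gatad2a (2.02 and 2.21), Mta2 (1.81 and 1.92) and Chd4 (1.44 and 1.60) also had both peaks. Among those with HDAC2 alone, Mta3 had levels of 1.16 and 2.03, a ratio of 0.40 (0.22 to 0.71), while Mta1 rested on 6 and 10 reads and Mbd3 had levels of 1.36 and 1.68. Rbbp7, with 3 and 9 reads, Chd3, with 7 and 9, and Mbd2, with 14 and 12, had neither peak.

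In the genes of the Sin3, CoREST and MiDAC complexes, which share HDAC1 and HDAC2 with NuRD, 3 of 19 had HDAC1 alone, 5 HDAC2 alone, 5 both and 5 neither. Those with HDAC1 alone were Rcor1 and Rcor2, encoding CoREST scaffolds, and Hmg20b, a CoREST partner. Sin3a, the Sin3 scaffold, had both. The 2 named by level, Ing1 and Kdm1a, had regions of only 219 and 286 bp with 7 or 8 reads in each library. Of the 9 other histone deacetylases 1, Hdac10, had an HDAC peak, HDAC1 alone, with 21 HDAC1 and 13 HDAC2 reads (ratio 1.23, 0.59 to 2.68). Of 13 acetyltransferase and acetyl-lysine reader genes 2 had HDAC2 alone and 4 both, among them Kat7 (levels 2.19 and 2.27) and Ep300, which encodes the H3K27 acetyltransferase p300 (2.05 and 2.03).

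Cell cycle and DNA replication genes had HDAC peaks in 18 of 27 (66.7%, against 41.9% of expressed genes), with 2 HDAC1 alone, 6 HDAC2 alone and 10 both. This list was highly expressed, with a median FPKM of 77.3 and 49.8 in the 2 clones. In the 2889 most highly expressed genes 6.51% had HDAC1 alone, 21.5% HDAC2 alone and 20.7% both. The helicase genes divided over all 3 groups: Mcm6 had HDAC1 alone, Mcm2 HDAC2 alone (24 and 24 reads), and Mcm3, Mcm4, Mcm5 and Mcm7 both. Among the 7 cyclin-dependent kinase inhibitors Cdkn1b (levels 1.92 and 2.53) and Cdkn2c (2.20 and 2.57) had both peaks. Cdkn1a, which encodes p21 and is a classic target of deacetylase inhibition, had a promoter region with HDAC1 alone (mm9, chr17:29229778-29231048) and 28 HDAC1 and 27 HDAC2 reads. Its level was 1.82 for HDAC1 and 2.07 for HDAC2, so that the enzyme without the peak had the higher level. The adjoining intronic region of Cdkn1a (mm9, chr17:29231054-29232795) had both peaks, with 42 and 57 reads. Its FPKM was 106 in clone 1 and 141 in clone 2. Cdkn1c, which encodes p57, had no assigned promoter region and was listed at 0 in both clones.

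Immediate early and AP-1 genes had 1 of 20 with HDAC1 alone (Klf6), 8 with HDAC2 alone and 4 with both, 65.0% in all against 41.9% of expressed genes. Fos, Fosl1, Egr1, Egr3, Ier2, Klf4, Maff and Myc had HDAC2 alone, and Fosl2, Ier3, Klf10 and Jun both. Jun, printed above, had a region of 5303 bp with 215 HDAC1 and 216 HDAC2 reads and levels of 2.50 and 2.84. The promoter region of Myc held 17 and 22 reads (levels 1.92 and 2.52). MAPK feedback genes, which dampen growth factor signalling, had HDAC2 alone in 2 and both in 3 of 12, 41.7% in all and thus near the 41.9% of expressed genes. Those with both include Dusp6 (132 and 124 reads, levels 2.24 and 2.48) and Dusp7 (93 and 122 reads, levels 1.88 and 2.49).

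Collagens and extracellular matrix genes had 0 of 20 with HDAC1 alone, 6 with HDAC2 alone and 3 with both. The 45.0% with any HDAC peak is near the 41.9% of expressed genes, and at 5.70% a list of 20 would hold few genes with HDAC1 alone. The 6 were Col1a2, Col4a2, Fn1, Postn, Sparc and Thbs1. Sparc, a secreted matrix protein gene, held 32 HDAC1 and 47 HDAC2 reads (ratio 0.52, 0.32 to 0.83) at levels of 1.75 and 2.48. Contractile and TGF-beta responsive genes had 0 of 17 with HDAC1 alone, 2 with HDAC2 alone and 3 with both (29.4% in all). Tpm1, a tropomyosin gene, held 34 and 63 reads (0.41, 0.26 to 0.63) and Cnn2, a calponin gene with both peaks, 154 and 150.

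Cytosolic ribosomal protein genes, the most highly expressed list, had 6 of 30 with HDAC1 alone, 4 with HDAC2 alone, 9 with both and 10 with neither, so that 63.3% had an HDAC peak. Those with HDAC1 alone included Rpl4, Rpl32 and Rps2. Rps6, printed above, had both, with 60 HDAC1 and 48 HDAC2 reads and levels of 2.58 and 2.64. Of the lists examined this one had the highest count of HDAC1 alone, against 5.70% of all expressed genes. In the 2889 most highly expressed genes 6.51% had HDAC1 alone, 21.5% HDAC2 alone and 20.7% both. The members of the list were chosen with earlier results known, so the count is a description.

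The remaining lists are given by their counts of HDAC1 alone, HDAC2 alone and both. They were 2, 2 and 3 of 17 sterol synthesis genes, 1, 2 and 4 of 18 glycolysis and hypoxia genes, 0, 4 and 3 of 16 p53 target genes, 1, 1 and 3 of 16 interferon-stimulated genes, and 1, 3 and 4 of 15 amino acid stress genes that respond to ATF4. Among these, Sqle (levels 2.08 and 2.27), Eno1 (2.06 and 2.37), Plk3 (1.95 and 2.48), Irf1 (2.32 and 2.54) and Cebpb (2.01 and 2.32) had both peaks. The Hox genes had 0, 2 and 4 of 25. Of 17 clustered histone genes 1, 1 and 1 had peaks, Hist2h3b with both. Of 22 developmental transcription factors of other lineages 0 had a peak. Only 1 of them, Gata4, had an assigned promoter region, and it reached 8.93 and 7.11 FPKM.

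**Figure D5:**
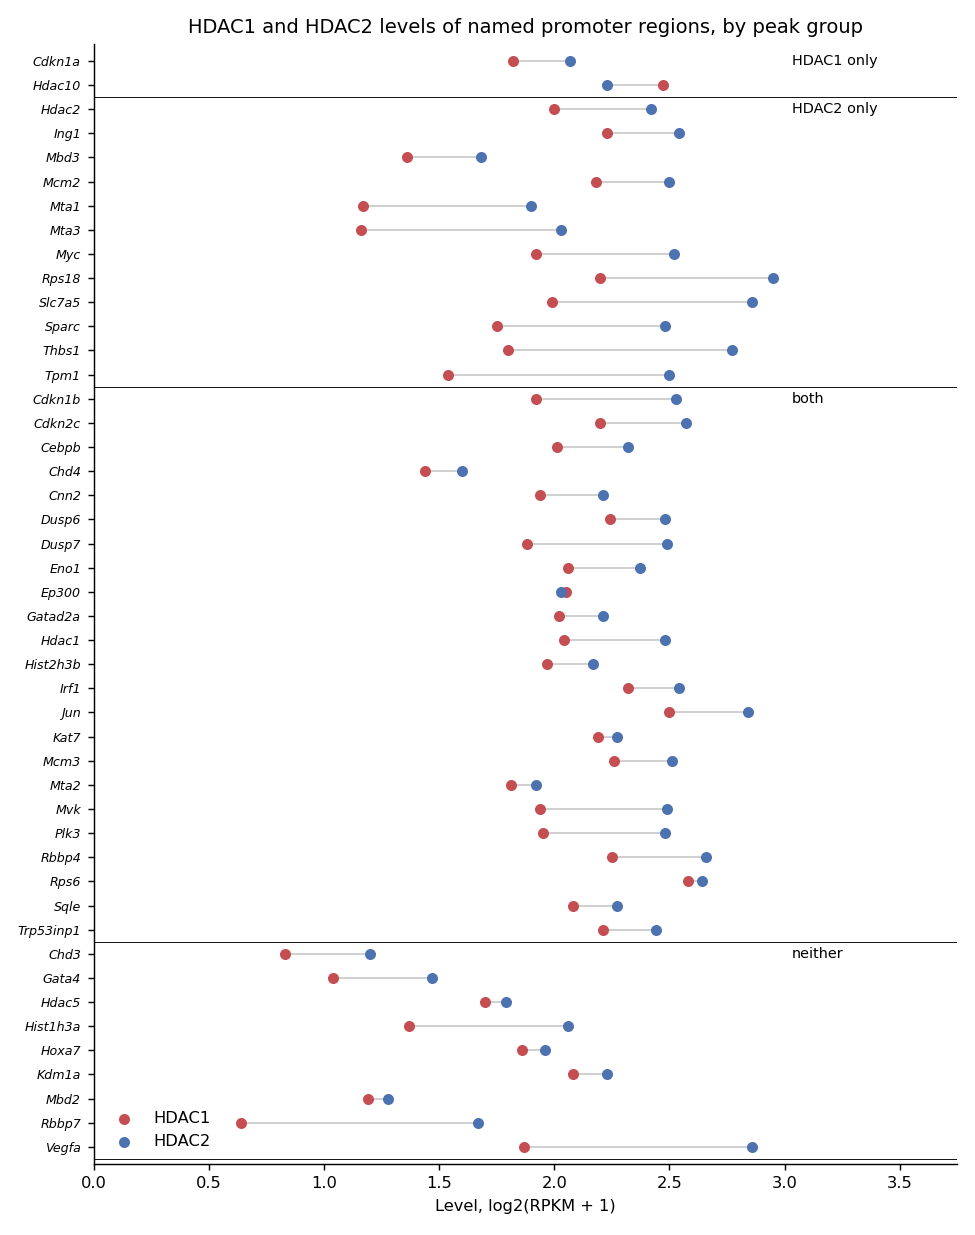
Each row is the named promoter region of 1 gene, ordered by the peak group of that region, with its HDAC1 level and its HDAC2 level as points on the log2(RPKM + 1) scale. HDAC2 lies to the right of HDAC1 in nearly all rows, with Hdac10 and Ep300 the exceptions.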

How the data were processed

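ChIP-seq regions of unmodified NIH/3T3 Tet-On 3G cells and RNA of 2 control clones were used. The authors deposited, per the file headers, a table with the fraction of each region covered by peaks and a table of log2 values of RPKM plus a pseudocount of 1, with annotation classes on mm9. The authors' deposited RNA tables hold FPKM values, and their sequential peak list holds a fold enrichment and a score for each peak. The submitters' processing notes name Bowtie, bedtools, TopHat, Cufflinks, Cuffdiff and MACS2, and the header of the sequential list names MACS 2.1.1.20160309. What each tool was used for is not given in the sources used here. Levels gave back whole reads in 100% of values under 100 reads, within 0.05 of a read, and totals of 6.62 to 11.0 M reads (M, mega) for the subunit libraries, 20.6 to 24.1 M for the marks and 13.6 and 18.4 M for HA-H3.3.

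Regions were grouped by a covered fraction above 0 for HDAC1, HDAC2 or both. Peak lists were joined by an overlap of at least 1 bp. Shares have exact (Clopper-Pearson) 95% intervals, ratios of reads exact intervals, and correlations are Spearman's over regions. No test was run, because each antibody had 1 library. Named regions were the 5 of highest level per group, the 5 with the largest HDAC1 to HDAC2 difference each way among regions with at least 50 reads in the pair, the NuRD genes, the 2 members of each other list with the highest summed levels, and Cdkn1a and Cdkn1c. Other genes were named by their peak group after their values were seen. Some genes that this rule names are not reported here. The members and lists were chosen with earlier results of these data known. Promoter sequences are from RefSeq (GRCm38.p6) and matched 17788 of 23951 genes (74.3%). Scripts were tested on simulated data and used Python 3.11.15, pandas 2.3.3, numpy 2.4.6, scipy 1.17.1 and matplotlib 3.10.9. Alternatives tried were a covered fraction of at least 0.5, other mark thresholds, promoters or other regions alone, regions of 500 to 1000 bp, other pseudocounts, centring and filters, and leaving out each control clone.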

Additional observations from a re-analysis of the deposited data

How the results depend on the processing

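Differences in share are HDAC1 alone minus HDAC2 alone, in percentage points. At a covered fraction of at least 0.5, 568 regions had HDAC1 alone, 2022 HDAC2 alone and 90 both, so that 13.7% of HDAC1 regions and 4.26% of HDAC2 regions had both. The promoter difference was then −15.9 (2.47 with any peak), H3K27ac −20.7 (−8.18), H3K9ac −24.3 (−2.69), H3K4me3 −25.6 (−4.57) and RBBP4 −33.9 (−14.8). At annotated promoters both peaks were in 69.2% of HDAC1 and 38.3% of HDAC2 regions, and the differences were −3.84 for H3K27ac, 0.627 for H3K9ac and 1.15 for H3K4me3. In other regions the values were 55.5% and 23.6%, and −11.3, −6.20 and −8.88. At 500 to 1000 bp the differences were 5.34 for promoters, 3.83 for H3K27ac, 6.26 for H3K9ac, 5.84 for H3K4me3, −5.56 for RBBP4 and 1.99 for CHD4, MBD2/3 or MTA1 (−1.11). With 50% of the region covered by the mark they were −1.29, −0.182 and −1.83 for H3K27ac, H3K9ac and H3K4me3. With the upper 50% of the mark peaks H3K9ac gave 0.0768 and H3K4me3 −0.898. Among regions with another peak, an alternative chosen after seeing the data, 67.2% of HDAC1 and 31.4% of HDAC2 regions had both, with 6.39 for promoters, −3.77 for H3K27ac, 2.93 for H3K9ac, 1.88 for H3K4me3, −6.26 for RBBP4 and 1.77 for CHD4, MBD2/3 or MTA1. The cause of these changes was not tested. Without 1 control clone the difference in expressed nearest genes was 1.09 to 1.24, against 0.954 with both. Of 86 comparisons of HDAC1 alone or HDAC2 alone with both peaks, 0 changed direction and 55 moved beyond their counting error. The other 77 comparisons were of group sizes, overlap, level differences and shares of HDAC1 alone against HDAC2 alone. Of these 9 changed direction and 30 moved beyond their limits. All 9 were differences between HDAC1 alone and HDAC2 alone in promoter or mark share. At a covered fraction of at least 0.5 HDAC2 alone minus both was −2.32 for H3K27ac (−26.0 with any peak), −4.41 for H3K9ac (−27.1), −0.719 for H3K4me3 (−20.7) and −5.38 for promoters (−16.6), all with intervals that include 0. No paired analysis was possible because each antibody had 1 library and no test was run. A median of 8 HDAC1 and 7 HDAC2 reads per region limits what single regions show.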
